A study of Homo sapiens with 4 samples.

Results

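p53 is a transcription factor that accumulates after DNA damage and other stress and switches on genes that arrest the cell cycle, start apoptosis, repair DNA or limit p53 itself. Its loop of control runs through MDM2, which is both a p53 target and the ligase that marks p53 for destruction. HCT116 is a human colon cancer epithelial line that is widely used in work on this pathway. The genes described here are 30 known direct p53 targets, taken by symbol from a list and not by measured values, of 20812 genes in the count files. All 30 symbols were present. In 29 of them the level, in CPM (reads per gene scaled to a common library size), was 1 or more in every library, between 4.98 CPM for ZMAT3 in wild type with DMF and 421 CPM for CDKN1A in wild type with indole. SPATA18, a mitochondrial quality control gene, had 3 reads in each library of the IDO1 line and 0 in each wild type library, and was not compared.

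Messenger RNA was read through PCR amplicons, a single short one per gene, in 4 groups of 1 library each. They were HCT116 cells overexpressing human IDO1 with 1 mM indole, the same line with the solvent DMF, unmodified wild type HCT116 cells with 1 mM indole, and wild type cells with DMF, all for 24 h. IDO1 is the enzyme that opens the ring of tryptophan on the way to kynurenine, and indole is a bacterial product of tryptophan. The labels do not say whether the IDO1 line is a single clone or which promoter drives the transgene. Reads per gene are not corrected for how well each target amplifies, so levels are compared between libraries and not between genes.

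Library totals lay between 18283862 and 22736172 reads. IDO1 itself had 2440 and 3451 reads in the IDO1 line with indole and with DMF, against 2 and 0 reads in wild type with indole and with DMF. On the first principal component (73.0% of the variance) wild type with indole scored 32.6, while the other 3 libraries scored -15.3 to -3.69. Colon epithelial markers summed over 14 genes to 4423 and 4132 CPM in the IDO1 line with indole and with DMF. In wild type the sums were 5531 and 5561 CPM. Of the 14 genes, 9 reached 10 CPM in at least 1 library. CDX1 and CEACAM5 had 0 reads in all 4, and VIL1 had 0 in both indole libraries. Markers of embryonic kidney cell lines summed over 12 genes to 124 and 119 CPM in the IDO1 line with indole and with DMF, with 0 of 12 genes at 0 reads, against 4.86 and 6.21 CPM in wild type with indole and with DMF, with 8 and 5 genes at 0 reads. Their part in the differences between the lines was not tested. In such bulk samples a change in the share of some cells and a change in RNA per cell cannot be told apart. Fibroblast markers summed to between 76.0 and 99.1 CPM over 9 genes, of which only 1 reached 10 CPM in any library. COL1A2, DCN and THY1 had 0 reads in all 4. Leukocyte markers summed to at most 2.89 CPM over 10 genes, with PTPRC and CD3E at 0 reads throughout.

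The proximal promoters of the p53 targets were searched, after values of the genes had been seen, for the 10-base motif of a p53 half-site. They were also searched for the letters CATG, found at the core of many p53 sites. Each reads the same on both strands, and a CATG can lie inside the longer motif. The search covered 35 RefSeq (GRCh38.p14) promoters of 24 of the 30 genes, each from 250 bases before to 50 bases after a transcript start. Not covered were TP53INP1, TNFRSF10A, TNFRSF10B, RRM2B, PHLDA3 and GADD45A. The chromosome of TP53INP1 was left out for the targets by rule, and no such rule was applied to all promoters. The motif stood in 6 of the 35 (17.1%), against 6.63% of all 35116 promoters of that length. CATG stood in 12 of the 35 (34.3%), against 54.9% of all promoters, so the shorter pattern was less common among the targets while the longer one was more common. The 10-base motif stood in targets higher with indole in wild type (FAS, FDXR, PLK2 and SESN1) and in targets with a ratio under 1 there (AEN and DDB2), so all 6 are shown. With library totals in place of TMM scaling AEN had a ratio of 1.07 (1.01 to 1.15), on the other side of 1. Capitals mark the 10-base motif in 30 bases read 5′ to 3′ on the strand of the gene. DDB2 alone had a pair of half-site motifs, at most 13 bases apart, which is the form of the full p53 consensus element. Such a pair stood in 10 of all promoters (0.0285%). A match is a description of these letters and not a measured binding site.
DDB2 (chr11:47214974-47215003, plus strand): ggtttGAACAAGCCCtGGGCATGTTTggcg
AEN (chr15:88621296-88621325, plus strand): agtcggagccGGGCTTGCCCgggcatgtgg
FDXR (chr17:74872986-74873015, minus strand): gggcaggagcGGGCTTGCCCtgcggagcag
FAS (chr10:88991299-88991328, plus strand): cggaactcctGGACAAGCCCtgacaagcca
SESN1 (chr6:109009018-109009047, minus strand): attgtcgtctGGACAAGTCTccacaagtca
PLK2 (chr5:58460199-58460228, minus strand): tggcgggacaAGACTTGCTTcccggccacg

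Most p53 targets had their highest level in wild type cells with indole. That library was the highest of the 4 for 22 of the 29 targets (75.9%), against 36.9% of the 12676 genes that reached 1 CPM anywhere, a count chosen after seeing the data. Wild type with DMF was the highest for 0 of the 29, against 20.3% of all genes. The IDO1 line with indole was the highest for 5 targets and the IDO1 line with DMF for 2, where 23.3% and 19.5% of all genes had their highest level. With library totals in place of TMM scaling, wild type with indole was the highest for 23 of the 29, against 45.7% of all genes. Over the 27 targets that reached 10 CPM anywhere, wild type with indole was the highest for 20, where 35.2% of 8845 genes were highest there. The IDO1 line with indole was the highest for 5 of the 27 (22.5% of genes), the IDO1 line with DMF for 2 (19.9%) and wild type with DMF for 0 (22.4%).

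**Figure D1:**
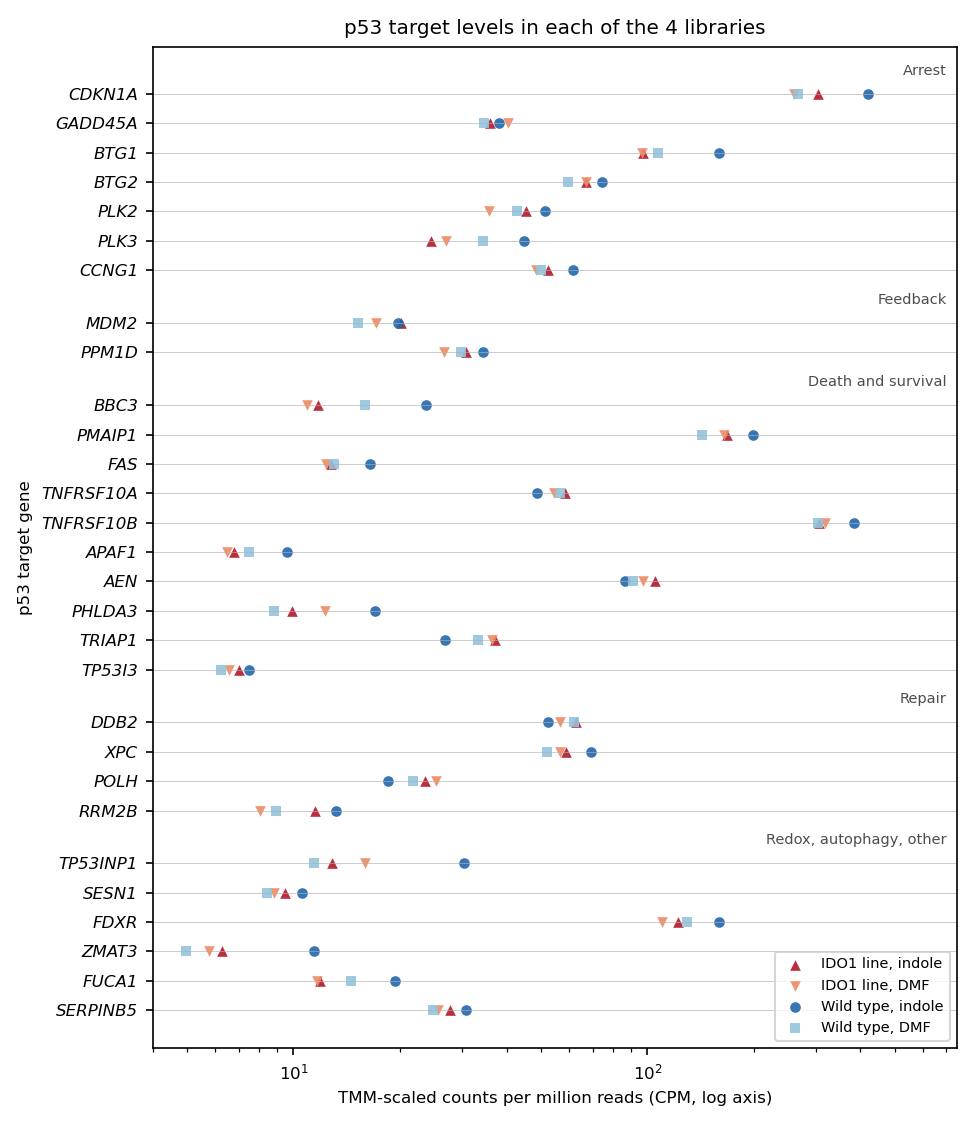
Level of 29 p53 targets in each of the 4 libraries, as TMM-scaled CPM on a log axis, with 1 point per library and genes grouped by role. Wild type with indole (dark blue circles) lies furthest right for 22 of the 29 genes, and at the left end for 5.

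The first comparison asked how p53 targets stood in wild type cells after indole. At least 1.5-fold higher were TP53INP1, ZMAT3, PHLDA3 and CDKN1A, and none was 1.5-fold lower, on a scale of log2 ratios of CPM plus 1. This is 4 of the 27 targets that reached 10 CPM in either library, where 7.09% of 8679 genes were at least 1.5-fold higher and 9.72% at least 1.5-fold lower. TP53INP1 and ZMAT3 were also at least 2-fold higher, as were 1.36% of all genes, and 0 targets were 2-fold lower, as were 1.54%. Above 0 were 22 of the 27 targets, against 46.2% of all genes, and their median log2 ratio was 0.32 against -0.04. With library totals in place of TMM, 8 of 28 targets were at least 1.5-fold higher, while the genes higher and lower numbered 1235 and 425 against 615 and 844 with TMM. With a minimum of 50 CPM, 1 target was, and the share of all genes at that minimum is not given here. ZMAT3, PHLDA3, SESN1 and RRM2B reached 10 CPM in wild type with indole and not in wild type with DMF, so counts over the 27 favour that direction. Because of this, and after the values had been seen, the 29 were counted too. They pass a minimum of 1 CPM in every library, and 24 of them were above 0 in this comparison, against 50.3% of 12332 genes. Their median log2 ratio was 0.32, against 0.003 for all genes at that minimum. The same 4 targets were at least 1.5-fold higher of the 29, against 9.4% of genes at that minimum, and 0 were lower, against 8.45%. Of the 29 ratios, 22 had an interval above 1 and 4 an interval below 1 with TMM (DDB2, TNFRSF10A, TRIAP1 and POLH). With library totals these counts were 25 and 0, so the 4 lower values depend on the scaling. The share of all genes with such intervals is not given here, so these counts do not set the targets apart. Each comparison here sets 1 library against another, so it has no replicate check and no p-value. Beside each fold stands its 95% interval, which covers counting error alone.

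Among the genes of cell cycle arrest, CDKN1A, which encodes the cyclin-dependent kinase inhibitor p21, had 304 and 259 CPM in the IDO1 line with indole and with DMF (5813 and 5915 reads), and 421 and 267 CPM in wild type with indole and with DMF (8145 and 5681 reads). Both lines were thus higher with indole, by 1.17-fold in the IDO1 line (1.13 to 1.22) and by 1.58-fold in wild type (1.52 to 1.63). BTG1, an antiproliferative factor, had 97.0 and 96.5 CPM in the IDO1 line with indole and with DMF (1856 and 2202 reads), and 159 and 107 CPM in wild type with indole and with DMF (3083 and 2277 reads). The level of wild type with indole stood above the other 3, 1.49-fold over wild type with DMF (1.41 to 1.57). PLK3, a stress-activated kinase, had 24.5 and 27.0 CPM in the IDO1 line with indole and with DMF (469 and 616 reads), and 44.9 and 34.2 CPM in wild type with indole and with DMF (869 and 728 reads). Both wild type libraries were above both libraries of the IDO1 line. The related kinase gene PLK2 instead was higher with indole in both lines, 1.27-fold in the IDO1 line (1.16 to 1.40) and 1.20-fold in wild type (1.10 to 1.32). BTG2, an antiproliferative relative of BTG1, and CCNG1, which encodes cyclin G1, were 1.25-fold (1.16 to 1.35) and 1.24-fold (1.14 to 1.34) higher with indole in wild type. GADD45A, a growth arrest gene, had 35.8 and 40.4 CPM in the IDO1 line with indole and with DMF and 38.0 and 34.6 CPM in wild type with indole and with DMF, and its interval in wild type included 1 with TMM but not with library totals (1.12 to 1.38).

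The feedback genes were higher with indole in both lines, by similar small amounts with TMM scaling. MDM2 had 20.1 and 17.1 CPM in the IDO1 line with indole and with DMF (385 and 390 reads), and 19.7 and 15.2 CPM in wild type with indole and with DMF (382 and 324 reads). It was 1.18-fold higher in the IDO1 line (1.02 to 1.36) and 1.30-fold in wild type (1.11 to 1.51). PPM1D, the phosphatase that removes activating phosphates from p53 and its kinases, was 1.15-fold higher in both the IDO1 line (1.03 to 1.29) and wild type (1.03 to 1.29). With library totals the folds in wild type were larger, at 1.46 for MDM2 (1.26 to 1.70) and 1.30 for PPM1D (1.17 to 1.46). Those in the IDO1 line stayed at 1.18 and 1.15.

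Among the apoptosis genes most were higher with indole in wild type. BBC3, which encodes the BH3-only protein PUMA, had 11.8 and 10.9 CPM in the IDO1 line with indole and with DMF (225 and 249 reads), and 23.7 and 15.9 CPM in wild type with indole and with DMF (459 and 339 reads). The wild type levels were the 2 highest, and indole gave a fold of 1.49 in wild type (1.29 to 1.72). PMAIP1, which encodes the BH3-only protein NOXA, had 168 and 165 CPM in the IDO1 line with indole and with DMF (3224 and 3768 reads), and 198 and 143 CPM in wild type with indole and with DMF (3838 and 3038 reads). It was 1.39-fold higher with indole in wild type (1.32 to 1.46), and in the IDO1 line the interval included 1. FAS, a death receptor, had 12.8 and 12.4 CPM in the IDO1 line with indole and with DMF (245 and 282 reads), and 16.5 and 13.02 CPM in wild type with indole and with DMF (319 and 277 reads), so that wild type with indole alone was set apart.

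With TMM scaling the TRAIL receptor genes TNFRSF10A and TNFRSF10B differed in direction in wild type. TNFRSF10B had 305 and 319 CPM in the IDO1 line with indole and with DMF, and 384 and 304 CPM in wild type with indole and with DMF, which is 1.26-fold higher with indole in wild type (1.22 to 1.31). TNFRSF10A had 58.5 and 54.3 CPM in the IDO1 line with indole and with DMF, and 48.6 and 56.8 CPM in wild type with indole and with DMF, which is 1.17-fold lower with indole in wild type (1.07 to 1.27). With library totals the ratio of TNFRSF10A was 0.967 (0.887 to 1.05), which includes 1. PHLDA3, an inhibitor of AKT signalling, had 9.88 and 12.3 CPM in the IDO1 line with indole and with DMF (189 and 280 reads), and 17.1 and 8.79 CPM in wild type with indole and with DMF (330 and 187 reads). The lines differed in direction, with a ratio of indole to DMF of 0.805 in the IDO1 line (0.666 to 0.971) and 1.94 in wild type (1.62 to 2.33). TRIAP1, a small protein that restrains apoptosis, was 1.24-fold lower with indole in wild type (1.11 to 1.40), but had a ratio of 0.907 with library totals (0.809 to 1.02). AEN, an apoptosis-enhancing nuclease, had a ratio of 0.952 there (0.891 to 1.02), and above 1 with library totals, as given beside its motif. APAF1, the scaffold of the apoptosome, and TP53I3, a quinone oxidoreductase, stayed under 10 CPM, with ratios of 1.29 (1.03 to 1.599) and 1.20 (0.940 to 1.53) in wild type.

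With TMM scaling the DNA repair genes lay on both sides of 1 in wild type. XPC, the damage sensor of nucleotide excision repair, had 58.8 and 56.5 CPM in the IDO1 line with indole and with DMF, and 69.1 and 51.9 CPM in wild type with indole and with DMF. DDB2, another damage sensor of that pathway and the gene with the paired motif shown above, had 62.8 and 56.8 CPM in the IDO1 line with indole and with DMF, and 52.3 and 62.2 CPM in wild type with indole and with DMF. Wild type with indole was thus the highest library for XPC and the lowest for DDB2. POLH, a translesion polymerase, was 1.18-fold lower with indole in wild type (1.03 to 1.36). With library totals the intervals of both included 1, with ratios of 0.949 for DDB2 (0.874 to 1.03) and 0.954 for POLH (0.829 to 1.098). RRM2B, the p53-inducible subunit of ribonucleotide reductase, had 11.5 and 8.06 CPM in the IDO1 line with indole and with DMF, and 13.2 and 8.93 CPM in wild type with indole and with DMF. Both indole libraries were above both DMF libraries, and the folds were 1.43 in the IDO1 line (1.17 to 1.74) and 1.47 in wild type (1.22 to 1.79).

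The remaining targets included the 2 with the largest folds. TP53INP1, a stress-induced protein that acts in apoptosis and autophagy, had 12.9 and 15.9 CPM in the IDO1 line with indole and with DMF (246 and 363 reads), and 30.4 and 11.4 CPM in wild type with indole and with DMF (588 and 243 reads). Indole gave a ratio of 0.808 in the IDO1 line (0.684 to 0.953) and 2.66 in wild type (2.29 to 3.10). The log2 ratio in wild type lay above those of 99.5% of all genes compared. ZMAT3, an RNA-binding zinc finger protein, had 6.27 and 5.79 CPM in the IDO1 line with indole and with DMF (120 and 132 reads), and 11.4 and 4.98 CPM in wild type with indole and with DMF (221 and 106 reads). It was 2.29-fold higher with indole in wild type (1.81 to 2.92), and wild type with indole stood above the other 3 libraries. FUCA1, a lysosomal fucosidase, had 11.9 and 11.7 CPM in the IDO1 line with indole and with DMF (228 and 266 reads), and 19.3 and 14.5 CPM in wild type with indole and with DMF (374 and 309 reads). Both wild type libraries lay above the IDO1 line. FDXR, the mitochondrial ferredoxin reductase, was higher with indole in both lines, 1.11-fold in the IDO1 line (1.04 to 1.17) and 1.23-fold in wild type (1.17 to 1.30). SESN1, a stress-induced regulator of growth signalling, and SERPINB5, a serpin of epithelial cells, had ratios of 1.26 (1.02 to 1.55) and 1.24 (1.10 to 1.40) in wild type.

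**Figure D2:**
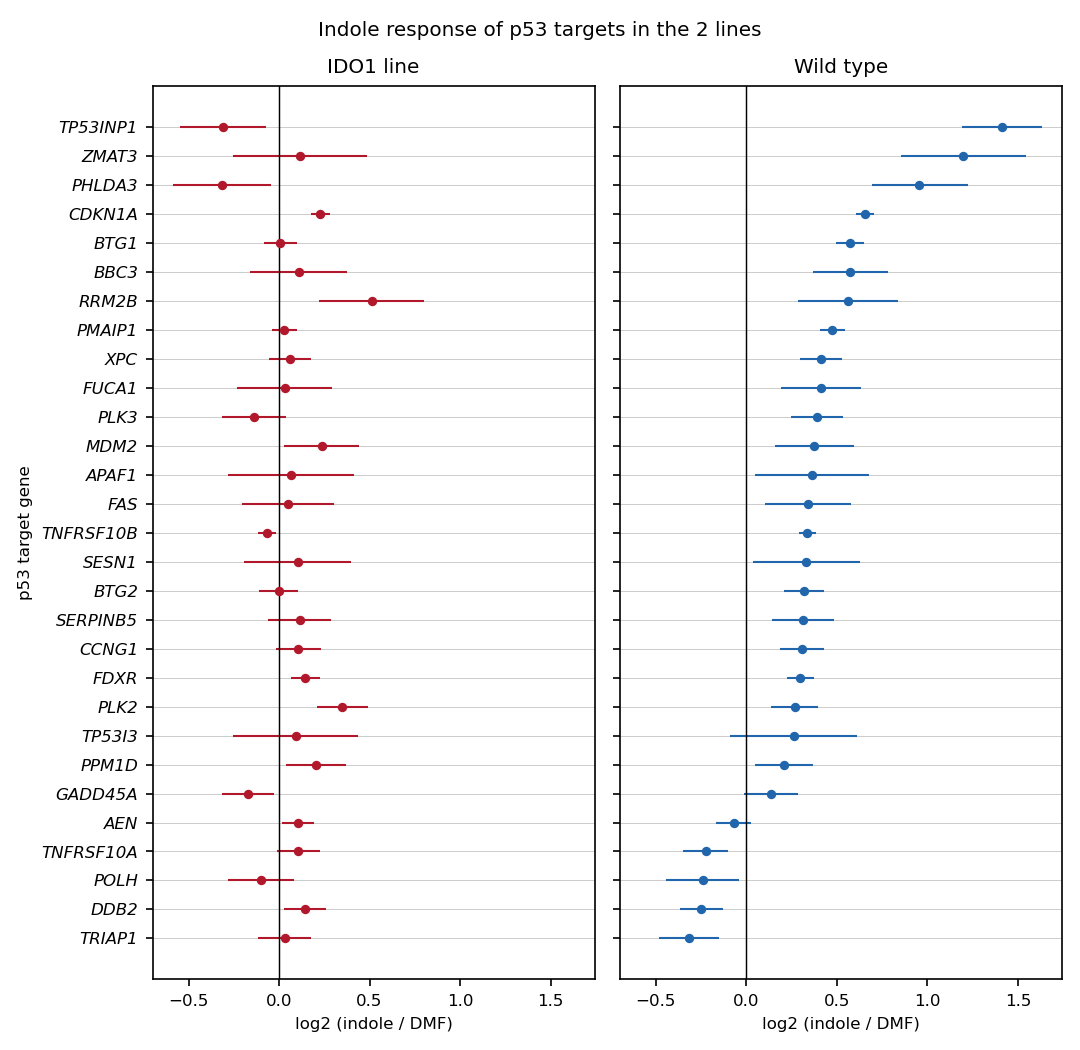
Log2 ratio of the scaled level with indole to that with DMF for 29 p53 targets, in the IDO1 line (left) and in wild type (right), with genes in the order of the wild type ratio and bars giving 95% intervals of counting error. In wild type 24 of the 29 points lie above 0, led by TP53INP1 and ZMAT3, and in the IDO1 line RRM2B has the largest ratio.

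In the IDO1 line the levels of p53 targets with and without indole lay close together. Of 25 targets compared, 0 were 1.5-fold higher and 0 were 1.5-fold lower, against 0.434% and 0.282% of 8523 genes, and 0 were 2-fold apart in either direction (0.0469% of genes higher and 0.0352% lower). Above 0 were 18 of the 25, against 48.8% of genes. Their log2 ratios ran from -0.29 for TP53INP1 to 0.46 for RRM2B, with a median of 0.06 against -0.01 for all genes. Of the 29 targets, 22 were above 0, against 50% of 12367 genes that reached 1 CPM. Of the 29 ratios, 8 had an interval of counting error above 1, 4 an interval below 1 and 17 an interval that included 1. The shares of all genes with such intervals are not given here. Ratios above 0 on the log2 scale were therefore common in this line also, at a smaller size, but most intervals included 1.

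The difference between the responses, IDO1 line minus wild type, was below 0 for 23 of the 29 targets, against 49.9% of all genes that reached 1 CPM. Of the 27 that reached 10 CPM, 21 were below 0, against 46.9% of genes, and the median difference was -0.27, against 0.03 for all genes. TP53INP1, at -1.62, and PHLDA3, at -1.17, were the 2 with a difference of at least 1 downward, where 2.14% of 8845 genes had one, and 0 targets had one upward, where 2.61% of genes did. ZMAT3 followed at -0.95, and the largest difference upward was 0.39, for DDB2. Indole ratios on opposite sides of 1 in the 2 lines, with both intervals excluding 1, were found for 4 of the 25 targets compared in both lines, and for 19.7% of 8357 genes. With a single library in each group, none of these differences could be tested.

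Without indole, the comparison of the IDO1 line with wild type put p53 targets on both sides of 0. Of 24 targets compared, 0 were 1.5-fold higher and 0 were 1.5-fold lower, where 0.894% and 1.26% of 8500 genes were. None was 2-fold apart, where 0.282% of genes were higher and 0.165% lower, and 12 of the 24 were above 0, against 48.4% of genes. The median log2 ratio was 0.003 against -0.01 for all genes. With library totals 16 of the 24 targets were above 0, with a median of 0.10 against 0.09 for all genes, and 139 genes were 1.5-fold higher and 63 lower, against 76 and 107 with TMM. BBC3 was lowest at -0.51, a fold of 1.46 lower in the IDO1 line (1.24 to 1.73), and TP53INP1 and PHLDA3 were highest, at 0.44 each.

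In indole, the IDO1 line was at least 1.5-fold below wild type for 7 of 27 targets, namely TP53INP1, BBC3, PLK3, ZMAT3, PHLDA3, BTG1 and FUCA1, where 9.75% of 8765 genes were. ZMAT3, PHLDA3 and SESN1 reached 10 CPM in wild type with indole and not in the IDO1 line, so this count favours that direction. Of the 29 targets, the same 7 were 1.5-fold lower, against 11.5% of genes that reached 1 CPM, and 0 were higher, against 11.9%. None of the 27 was 1.5-fold higher, where 11.6% of all genes were. On that scale TP53INP1 alone was 2-fold lower, as were 2.22% of genes, and 0 targets were 2-fold higher, as were 2.28%. TP53INP1 was 2.36-fold lower (2.03 to 2.75), BBC3 2.02-fold (1.72 to 2.38), PLK3 1.83-fold (1.64 to 2.05) and BTG1 1.64-fold (1.55 to 1.74). The median log2 ratio was -0.23 against 0.03 for all genes, and 21 of the 27 targets were below 0, against 47.2% of genes. Of the 29 targets, 23 were below 0, against 49.4% of genes that reached 1 CPM. This comparison and the indole comparison in wild type share the library of wild type with indole, so their directions are not separate observations. With a pseudocount of 5 in place of 1, 4 of the 27 were at least 1.5-fold lower, and with a minimum of 50 CPM 1 target was. The shares of all genes at these settings are not given here. With library totals, 780 genes were higher and 1106 lower, against 1017 and 855 with TMM.

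**Figure D3:**
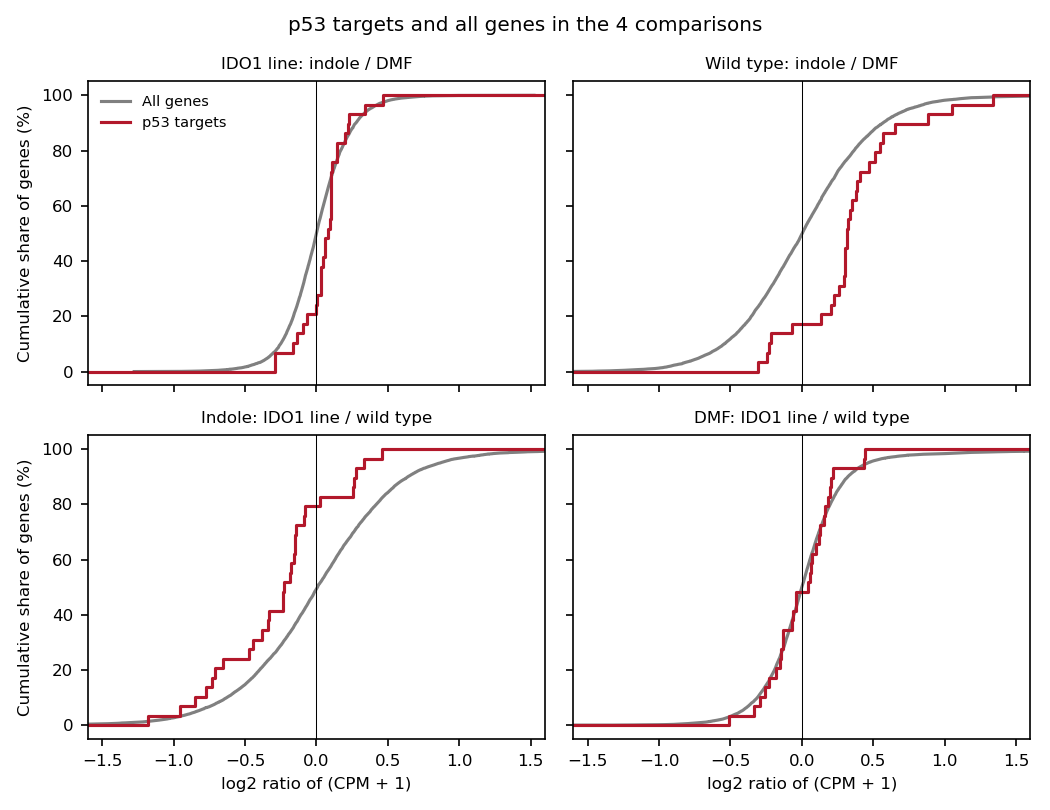
Cumulative share of genes by log2 ratio of CPM plus 1 for the 4 comparisons, for p53 targets (red, 29 genes) and for all genes with at least 1 CPM in either library (grey). The red curve lies right of the grey one for indole in wild type, left of it for the IDO1 line against wild type in indole, and near it for the IDO1 line against wild type in DMF. For indole in the IDO1 line it lies to the right around 0 and meets the grey curve above.

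Additive fits over all 4 libraries, with edgeR's quasi-likelihood test, tested each factor across both levels of the other with 1 residual degree of freedom. No p53 target passed for indole (0 of 29), and 0 of 13122 genes did in either direction (0% each). At an unadjusted p under 0.05, 448 genes passed for indole, and 2 targets were higher at that level, ZMAT3 by 0.67 on the log2 scale (SE 0.309, edgeR unadjusted p 0.0391) and RRM2B by 0.54 (SE 0.265, edgeR unadjusted p 0.0496), where 2.03% of all genes did. None was lower at that level, where 1.39% of genes did. DESeq2 called 0 genes as well, with 129 at an unadjusted p under 0.05 and 0 of them p53 targets. For the line, 0 of 29 targets passed, where 2.03% of all genes rose and 0.419% fell. BBC3 had the lowest p of the targets, at -0.79 on the log2 scale (SE 0.253, edgeR adjusted p 0.131), and PLK3 followed at -0.62 (SE 0.230, edgeR adjusted p 0.254). These 2 were below an unadjusted p of 0.05 downward, as were 4.7% of all genes, and 0 targets were upward, as were 5.29% of genes. DESeq2 placed 2 targets below that level, both downward. A gene whose indole response differs between the lines, as for TP53INP1, has a larger residual in these fits.

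Of 16 p53 family members and regulators compared, 2 were at least 1.5-fold higher with indole in wild type and 0 lower, against 7.09% and 9.72% of all genes, and the median log2 ratio was 0.03 against -0.04. They were JMY, a p53 cofactor, 1.93-fold higher (1.64 to 2.27), and MDM4, the MDM2-related inhibitor of p53, 1.71-fold (1.55 to 1.89). In the line fit, 1 of 23 regulators rose and 0 fell, where 2.03% of all genes rose and 0.419% fell. It was CDKN2A, whose product ARF binds MDM2, which rose by 1.17 on the log2 scale (SE 0.298, edgeR adjusted p 0.0244) with 174 and 256 reads in the IDO1 line with indole and with DMF, against 99 and 83 reads in wild type with indole and with DMF. The single CDKN2A target does not say which of its transcripts was read. In the same fit 9 of 11 embryonic kidney line markers rose in the IDO1 line, and their part in the CDKN2A value was not tested.

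In a further list of p53 targets the ratios went both ways. Of 30 such genes compared, 4 were at least 1.5-fold higher with indole in wild type and 2 lower, against 7.09% and 9.72% of all genes, and the median log2 ratio was 0.09 against -0.04. Higher were GDF15, a stress-induced secreted factor, 4.13-fold (4.03 to 4.25), SESN2, a sestrin, 1.83-fold (1.66 to 2.01), TGFA, a growth factor, 1.72-fold (1.58 to 1.88), and ATF3, a stress transcription factor, 1.63-fold (1.43 to 1.87). Lower were SFN, the arrest protein 14-3-3 sigma, 1.77-fold (1.56 to 2.01), and BID, a BH3-only protein, 1.56-fold (1.32 to 1.85). ATF3 and BID were named after their values were seen. BAX, the pore-forming apoptosis protein, had a ratio of 1.11 (1.04 to 1.19) and was chosen after its values were seen. In the IDO1 line 0 of 30 were 1.5-fold apart with indole in either direction, and 0 of 36 passed either additive fit.

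Genes that p53 and p21 lower through the DREAM repressor complex lay across 0 from most targets with indole in wild type. Of 20 compared in wild type, indole left 16 at least 1.5-fold below DMF and 0 above, against 9.72% and 7.09% of all genes, and the median log2 ratio was -0.94. In the IDO1 line 0 of 21 were lower and 1 higher, against 0.282% and 0.434% of all genes. The gene was MCM5, a subunit of the replicative helicase, 1.59-fold higher with indole (1.53 to 1.64), a log2 ratio of 0.66. In DMF, MCM5 of the IDO1 line stood at least 1.5-fold below wild type, at a log2 ratio of -0.66. Both ratios use the DMF library of the IDO1 line, so they are not separate observations. In wild type BIRC5, which encodes the apoptosis inhibitor survivin, was 2.54-fold lower with indole (2.43 to 2.64), CCNB1, which encodes cyclin B1, 2.51-fold (2.33 to 2.71), and CDC20, which switches on the ligase APC/C in mitosis, 2.42-fold (2.29 to 2.55). The outputs of ATF4 and CHOP, transcription factors of the amino acid and ER stress response, were at least 1.5-fold higher for 8 of 11 genes with indole in wild type and lower for 0, against 7.09% and 9.72% of all genes, and 0 of 11 were 1.5-fold apart in the IDO1 line. CHAC1, a glutathione-degrading enzyme, was 4.50-fold higher (4.03 to 5.02) and SLC7A11, the cystine transporter, 2.54-fold (2.40 to 2.70). SESN2 and ATF3 belong to this list as well as to the further p53 targets. Part of the p53 targets, among them PMAIP1, BBC3 and TNFRSF10B, are known to respond to that pathway too, and its part in the levels above was not tested.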

How the data were processed

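The authors deposited raw counts of reads per amplicon (AmpliSeq whole-transcriptome kit, per the labels' protocols), in 1 column for each of 4 libraries. Per the submitters' processing notes the genome build was hg19. Aligner, counter and strand setting: not given in the sources used here. Although 2 replicates a group are named in the design text, only 1 count column a group was analysed here, and whether it is 1 replicate or a sum is not stated. The labels name no separate cultures. Each gene's fit left 1 residual degree of freedom, which holds the difference of the indole responses between the lines together with library noise. That noise may be technical. The quasi-likelihood test of edgeR draws each gene's variance toward a trend over all genes. Its p-values therefore rest also on variance shared between genes.

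Counts were scaled by TMM (edgeR 4.0.16, R 4.3.3) to CPM. Log2 ratios were of CPM plus 1, for genes that reached 10 CPM in either library. Folds left out the pseudocount and carry exact 95% intervals (Clopper-Pearson, scipy 1.17.1) of how the reads divide between libraries. With no molecular identifiers, PCR copies are counted as if independent, so these intervals cover counting error only. Line and treatment were fitted to the counts of all 4 libraries by edgeR (filterByExpr, quasi-likelihood test, Benjamini-Hochberg at 0.05 over all genes), and standard errors were back-calculated from the F statistic. Both procedures were tested on simulated data. For the fit, 200 genes were changed 4-fold between the lines, with no indole effect. No gene was given an indole response that differs between the lines, so the simulation does not cover that case.

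The targets, lists and tests were chosen with earlier results of these data known. Reads in all libraries are given for targets at least 1.5-fold apart in a comparison of 2 libraries, for CDKN1A, MDM2, BBC3, PMAIP1 and FAS, and for IDO1. A further gene that this rule names is not reported here. Values in all libraries are also given for DDB2, XPC, RRM2B, GADD45A, TNFRSF10A and TNFRSF10B, chosen after their values were seen. From each further list up to 4 members with the largest ratios at least 1.5-fold apart may be named. Other settings tried were scaling by library totals or by median-of-ratios, other pseudocounts and minimums, and DESeq2 1.42.0. RefSeq promoters (GRCh38.p14) were matched by symbol. In GENCODE 29 (GRCh38), exons of 8 targets (MDM2, FAS, TP53I3, XPC, TNFRSF10B, PLK3, POLH and APAF1) overlap a protein-coding gene on the opposite strand. Whether the amplicon of each target lies in the overlap was not looked up. If it does, with no strand setting stated, the reads of both genes cannot be told apart.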

Additional observations from a re-analysis of the deposited data

Results flagged for a closer look

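Among the p53 targets, 4 had indole ratios on opposite sides of 1 in the 2 lines, with both counting intervals excluding 1. They are 4 of 25 compared in both lines, against 19.7% of 8357 genes, so the count does not set the targets apart. The difference of the log2 ratios, IDO1 line minus wild type, was -1.62 for TP53INP1, -1.17 for PHLDA3, -0.40 for TNFRSF10B and 0.39 for DDB2. These differences were not tested, since each group had 1 library. TNFRSF10B had a ratio of 0.956 in the IDO1 line (0.924 to 0.990), so its opposite direction there is small. For DDB2 the ratios were 1.10 in the IDO1 line (1.02 to 1.20) and 0.841 in wild type (0.775 to 0.914), and library totals moved the wild type interval to 0.874 to 1.03, which includes 1. The library of wild type with indole, which stood apart from the others, enters all 4 differences.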

How the results depend on the processing

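With library totals, the median log2 ratio of all genes with indole in wild type moved from -0.04 to 0.14, and that of the p53 targets from 0.32 to 0.48, so the targets stood 0.36 above all genes with TMM and 0.35 with library totals. Library totals also gave 8 of 28 targets at least 1.5-fold higher there, a median difference between the responses of -0.43, and 6 genes passing for indole. All genes at least 1.5-fold higher and lower there numbered 615 and 844 with TMM, against 1235 and 425 with library totals. For the IDO1 line over wild type in indole they were 1017 and 855, against 780 and 1106, and in DMF 76 and 107, against 139 and 63. A minimum of 50 CPM left 1 target at least 1.5-fold higher with indole in wild type, 1 lower in the IDO1 line in indole and 0 with a difference of at least 1 downward, since fewer targets were compared. A pseudocount of 5 gave 4 and 1 for the last 2 counts, and the shares of all genes at these settings are not given here. The median in DMF was 0.003 with TMM and -0.00233 with median-of-ratios size factors. For indole, 10 genes passed with no filter and 5 with at least 10 CPM in 2 libraries, and for the line 322 passed by the quasi-likelihood test, 86 by DESeq2 and 74 with at least 10 CPM in 2 libraries. No p53 target passed in any of these fits. Of 560 log2 values of the 27 single targets that reached 10 CPM anywhere, 24 moved and 6 reversed under these alternatives. The other minimums cannot change the ratio of a single gene. Library totals barely change indole ratios in the IDO1 line, where the TMM factors were 1.00361 with indole and 1.00357 with DMF. The share of the 560 that moved or reversed is therefore no measure of how stable the values are. The 6 were all with library totals. AEN went to 0.10 for indole in wild type. For the IDO1 line over wild type, CCNG1 went to 0.056, CDKN1A to 0.054, FAS to 0.020 and TNFRSF10A to 0.033 in DMF, and MDM2 to -0.047 in indole. The cause of these shifts was not tested. The count of targets highest in wild type with indole, the promoter search and the rule for opposite directions in the lines were chosen after seeing the data, as were the tolerances for calling a median unmoved (the median counting error of the targets, or 0.1 for the additive fits). No paired analysis was possible because each group has 1 library and the labels carry no replicate numbers. A level of a few CPM, as for ZMAT3, rests on 106 to 221 reads.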
